A study of Mus musculus with 33 samples.

Results

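The circadian clock genes described here were Arntl, Npas2, Per1, Per2, Per3, Cry1, Nr1d1, Nr1d2, Dbp and Ciart, 10 genes chosen by symbol among the 56414 rows of a table of normalised read counts. Each symbol matched 1 row, and all 10 passed the filter on low values, a mean normalised count of at least 10 over the libraries of a tissue label, under both labels. The libraries came from tumour-free C57Bl/6 mice that either were left untreated or received nicotinamide (NAM, a B vitamin) at 0.5% in their drinking water over 1, 3 or 14 days. Of the 33 libraries, 20 bear the label spleen, 5 per group. The other 13 bear the label lymph node, and of these 3 were untreated, while NAM had been given for 1 day in 2, for 3 days in 4 and for 14 days in 4. The study's methods describe female mice kept on a light-dark cycle, whereas the labels give no time of day at which tissue was taken, so the duration of NAM and the time of collection cannot be told apart in any change of a clock gene. Whether the libraries of a group came from separate animals, or whether an animal gave both organs, is not stated in the labels, so p-values measure the spread between these libraries, which may be technical.

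The circadian clock is a loop of transcription and translation that runs in nearly every cell. Arntl (BMAL1) pairs with Clock or Npas2 and switches on genes through E-box elements, among them the Per and Cry genes, whose proteins then repress that pair. Nr1d1 and Nr1d2 (REV-ERB alpha and beta) repress Arntl in a second loop, and Dbp carries the rhythm to output genes through D-box elements. Nicotinamide is linked to this loop because NAD, which cells make from it through Nampt, is a substrate of sirtuins such as Sirt1 that act on clock proteins.

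The tissue labels went against tissue markers. Glycam1, a mucin of lymph node vessels, lay between 108167 and 214210 normalised counts in the libraries labelled spleen and between 1.58 and 12.4 in those labelled lymph node. Spic, a transcription factor of red pulp macrophages in spleen, lay between 774 and 1295 under the spleen label and between 6117 and 10491 under the lymph node label. The tissues are therefore named only as labelled. The libraries of each label had been scaled separately, which limits any level set across them. Reads per library numbered 18325061 to 54830743 under the spleen label, where the 3-day group was the deepest, and 30424968 to 46733974 under the lymph node label.

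Cry1 and Nr1d2 were the 2 of 10 clock genes that rose with NAM under the spleen label, at 1 day and at 3 days, and at 14 days no clock gene passed. The same test called 16.6% of all genes at 1 day, made up of 8.56% higher as well as 8.05% lower, so the 2 of 10 clock genes at 1 day were close to the share of all genes. At 3 days it called 5.55%, with 2.82% higher as against 2.74% lower. Cry1 encodes the cryptochrome that blocks the Arntl pair, and Nr1d2 a haem-binding nuclear receptor that represses it. In the libraries labelled lymph node 0 of 10 passed at any duration, where the test called 1.21%, 1.24% and 0.791% of all genes at 1, 3 and 14 days. With so few genes called, 0 of 10 there does not set the clock genes apart from the rest. To show the start regions of these genes beside those of others, the 300 bases around the gene start (250 before to 50 after, RefSeq, GRCm38.p6) are given for both, followed by those of Ciart and Per3, which hold clock motifs but did not pass.

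Cry1, chr10:85185005-85185304, minus strand: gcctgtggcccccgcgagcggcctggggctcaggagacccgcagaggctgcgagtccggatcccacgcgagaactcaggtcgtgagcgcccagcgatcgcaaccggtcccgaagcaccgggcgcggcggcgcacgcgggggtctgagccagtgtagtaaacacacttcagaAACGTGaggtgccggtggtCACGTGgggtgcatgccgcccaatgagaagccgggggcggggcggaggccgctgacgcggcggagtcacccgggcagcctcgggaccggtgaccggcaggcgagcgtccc
Nr1d2, chr14:18239057-18239356, minus strand: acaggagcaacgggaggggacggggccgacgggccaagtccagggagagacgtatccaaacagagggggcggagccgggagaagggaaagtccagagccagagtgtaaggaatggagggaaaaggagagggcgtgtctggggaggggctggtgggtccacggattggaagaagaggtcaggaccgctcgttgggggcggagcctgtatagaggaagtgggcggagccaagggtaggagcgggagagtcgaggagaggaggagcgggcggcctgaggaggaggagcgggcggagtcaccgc
Ciart, chr3:95882179-95882478, minus strand: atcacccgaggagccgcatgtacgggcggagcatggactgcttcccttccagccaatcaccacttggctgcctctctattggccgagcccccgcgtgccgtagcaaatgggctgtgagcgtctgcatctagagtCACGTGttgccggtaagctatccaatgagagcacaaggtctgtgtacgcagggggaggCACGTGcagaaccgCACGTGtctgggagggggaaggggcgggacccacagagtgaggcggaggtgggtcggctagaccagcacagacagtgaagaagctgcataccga
Per3, chr4:151044616-151044915, minus strand: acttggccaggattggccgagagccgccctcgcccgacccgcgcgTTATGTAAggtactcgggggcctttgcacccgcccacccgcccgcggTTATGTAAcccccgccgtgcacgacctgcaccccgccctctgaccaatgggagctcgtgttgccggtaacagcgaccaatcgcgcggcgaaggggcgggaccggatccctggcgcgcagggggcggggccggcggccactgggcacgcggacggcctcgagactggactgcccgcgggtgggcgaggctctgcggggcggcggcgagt

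Capitals mark matches on either strand. The letters searched were CACGTG for the E-box, which the Arntl pair binds, CACGTT for a variant called E-box-like here, whose other strand is shown in the window of Cry1, and TTATGTAA for the D-box, which Dbp and its relatives bind. The motifs TAGGTCA, the core of the element that REV-ERB and ROR receptors bind, and TGACGTCA, the cAMP response element, were searched as well. None of the 5 sets of letters contains another. The window of Cry1 held an E-box whose first base lay 60 bases before the gene start and an E-box-like match 79 bases before it. The window of Nr1d2 held none of these letters, and neither did those of Dbp and Npas2. Ciart held 3 E-boxes, at 116, 58 and 44 bases before the start, and Per3 held 2 D-boxes, at 205 and 158 bases before it. Of the others, 1 of the 2 windows of Per1 held an E-box, that of Nr1d1 held an E-box-like match and 1 of the 2 windows of Arntl held TAGGTCA. Among all 32851 windows of this length, 7.15% held the E-box, 4.69% CACGTT, 0.938% the D-box, 2.61% TAGGTCA and 1.79% TGACGTCA. Windows were found for 9 of the 10 genes, and Per2 had no entry.

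Cry1 (chromosome 10, 85131702 to 85185065 in mm10) showed the clearest pattern. Its normalised counts under the spleen label were 776, 744, 703, 626 and 642 in untreated libraries and 1022, 1063, 1089, 1032 and 1087 at 1 day. They were 690.1, 890.3, 941, 1004 and 1032 at 3 days and 781, 716, 669.6, 671 and 751 at 14 days. All 5 libraries at 1 day lay above all 5 untreated and all 5 14-day libraries, 4 of 5 did so at 3 days, and the 14-day libraries overlapped the untreated ones. The means were 698 ± 64.0, 1059 ± 30.7, 912 ± 136 and 718 ± 49.1 (SD, n = 5 each).

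Cry1 was higher than untreated by a log2 fold change of 0.60 ± 0.0914 (SE) at 1 day, with an adjusted p of 0.000528 by limma on log2(normalised count + 1). At 3 days the log2 fold change was 0.38 ± 0.0914, with a limma adjusted p of 0.0249, and at 14 days it was 0.04 with an adjusted p of 1. Cry1 was also higher at 1 than at 14 days, by 0.56 on the log2 scale (limma adjusted p = 0.00192). The 1-day call passed in all 23 alternative settings, with log2 fold changes between 0.56 and 0.66. The 3-day call passed in 16 of 23 and was lost when only the 2 groups were fitted (adjusted p = 0.0884) or when any of 6 libraries was left out, namely untreated replicates 4 and 5 and 3-day replicates 2, 3, 4 and 5, with adjusted p between 0.0584 and 0.0871. Without the 3-day replicate 1, the lowest of its group, the log2 fold change was 0.47 and the limma adjusted p 0.000208.

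Nr1d2 (chromosome 14, 18204056 to 18239106 in mm10) rose with Cry1. In libraries labelled spleen its normalised counts were 824, 1016, 734, 1021 and 949.6 in untreated libraries and 1195, 1621, 1230.0, 1333 and 1211 at 1 day. They were 1268, 1206, 1352, 1200.0 and 1256 at 3 days and 943, 1096, 871, 1218 and 966 at 14 days. Every library at 1 and at 3 days lay above every untreated one, while the 14-day libraries overlapped both the untreated and the treated ranges.

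The log2 fold change of Nr1d2 against untreated was 0.54 ± 0.105 (SE) at 1 day (limma adjusted p = 0.00234) and 0.48 ± 0.105 at 3 days (limma adjusted p = 0.0153). At 14 days it was 0.17, with an adjusted p of 1, and 1 day exceeded 14 days by 0.37 (limma adjusted p = 0.0283). The 1-day call passed in all 23 alternatives, and the 3-day call in 22 of 23, with an adjusted p of 0.0565 without the 3-day replicate 3. These counts leave out a rule that asks for a 1.5-fold change and an unadjusted p no larger than 0.05, which Nr1d2 met at neither duration and Cry1 met at 1 day and not at 3 days. At 1 day 2 of 10 clock genes met it, Cry1 and Npas2, with 8.21% of all genes, and at 3 days 0 of 10, with 3.40%. In the 3-day replicate 1, Cry1 at 690.1 was within the untreated range and Nr1d2 at 1268 was not. That library also lay with the untreated and 14-day libraries on the second principal component of all tested genes, which carried 13.6% of the variance, at -17.4 against 11.1 to 21.6 for the others of its group.

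**Figure D1:**
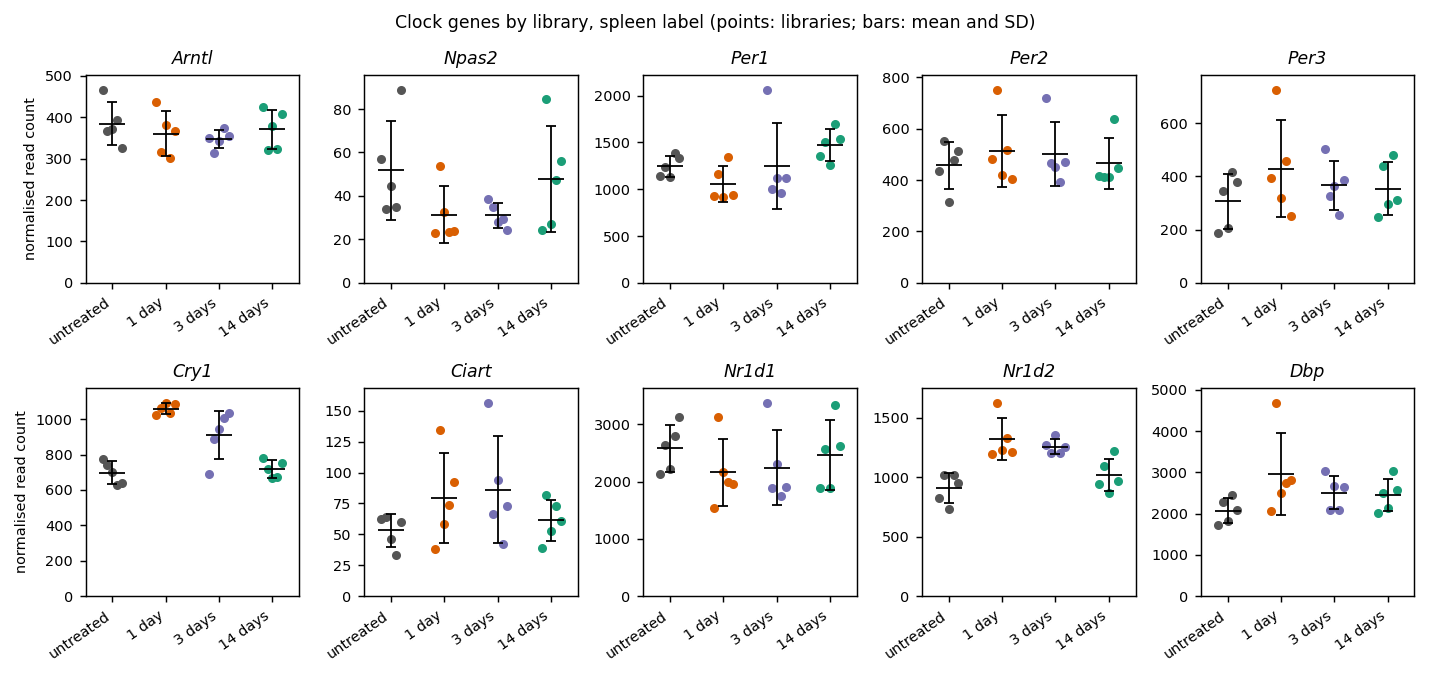
Normalised read counts of the 10 clock genes in the 20 libraries labelled spleen, by group on the x axis and with a separate y axis from 0 for each gene; points are libraries and bars the mean and SD of 5. Cry1 at 1 day, between 1022 and 1089, stands clear of untreated, between 626 and 776, and Nr1d2 is higher at 1 and 3 days, whereas the other genes overlap between the groups.

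For the spleen label, the test called 16.6% of all 18243 genes at 1 day and 5.55% at 3 days, and 0 (0%) at 14 days. Against that, 2 of 10 clock genes passed at 1 day and 2 of 10 at 3 days. The median log2 fold change of the 10 genes was 0.31 at 1 day, 0.20 at 3 days and 0.10 at 14 days, while over all genes it was 0.01 or less in size. At 14 days 0 of 10 had an unadjusted p under 0.05, as against 510 of all genes, and edgeR and DESeq2 called 0 clock genes as well. Groups did not overlap with untreated for 2 of 10 genes at 1 day (Cry1 and Nr1d2, with 11.9% of all genes), 1 at 3 days (Nr1d2, 5.06%) and 0 at 14 days (0.548%).

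Between durations under the same label, Cry1 and Nr1d2 were 2 of 10 at 1 against 14 days (10.6% of all genes called). At 3 against 14 days limma called 0 of 10 (1.05% of all genes), with 2 at an unadjusted p under 0.05 and 1 each by edgeR and DESeq2, and at 1 against 3 days 0 of 10 (0.00548%), with 1 at an unadjusted p under 0.05 and 0 by edgeR and DESeq2. In the test of any difference among the 4 groups, the same 2 of 10 passed, against 12.4% of all genes.

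**Figure D2:**
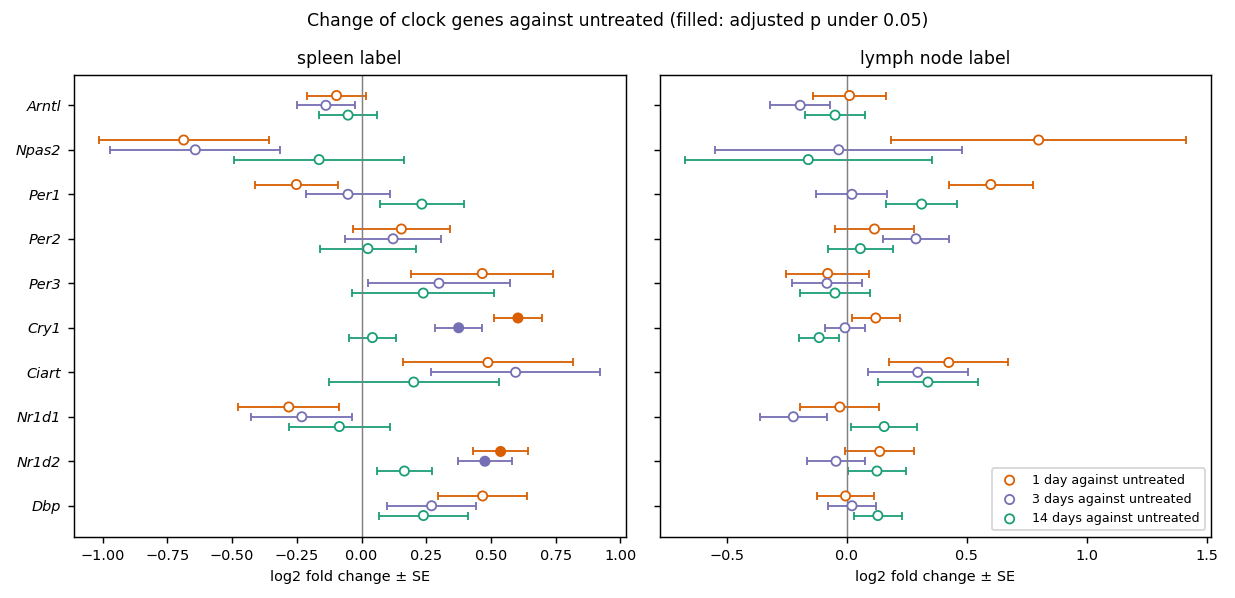
Log2 fold change against untreated, with its SE, for each clock gene at 1, 3 and 14 days under the spleen label (left) and the lymph node label (right); filled points passed an adjusted p of 0.05. The 4 filled points are Cry1 and Nr1d2 at 1 and 3 days under the spleen label.

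In the activator arm, Arntl and Npas2 did not pass in any comparison. Arntl was 466, 366, 371, 394 and 326 in untreated libraries labelled spleen, and its highest and lowest values over all 20 differed 1.545-fold. At 1 day it was 437, 316, 381, 301 and 366, so the groups overlapped. The log2 fold change was -0.10 ± 0.113 (SE), with a limma adjusted p of 0.598. Its partner Clock, counted with the other clock genes below, had -0.41 ± 0.169 at 1 day (limma adjusted p = 0.107) and -0.41 at 3 days (limma adjusted p = 0.156). Clock passed in 4 of 23 alternatives at 1 day (limma adjusted p between 0.0187 and 0.0492) and in 3 of 23 at 3 days, where without the 3-day replicate 1 it had -0.62 (limma adjusted p = 0.00151).

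Npas2, which can stand in for Clock, had few reads, between 17 and 86 per library under the spleen label and between 3 and 28 under the lymph node label. Its spleen-label values were 57.1, 33.9, 44.5, 34.8 and 88.8 in untreated and 23.1, 53.7, 32.6, 23.6 and 24.1 at 1 day. At 1 day 4 of 5 libraries lay below all untreated ones and replicate 2 lay among them. The log2 fold changes were -0.69 ± 0.328 (SE) at 1 day and -0.64 ± 0.328 at 3 days, with limma adjusted p of 0.161 and 0.263.

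In the repressor arm, Per1, Per2 and Per3 encode the period proteins that act with Cry1, and Ciart (CHRONO) represses the Arntl pair too. Per1 under the spleen label was 1146, 1239, 1129, 1388 and 1330.0 in untreated, 933, 1158, 912, 1344 and 933 at 1 day, and 1357, 1500.0, 1254, 1696 and 1534 at 14 days. At 1 day 3 of 5 libraries lay below all untreated ones and 4 of 5 below all 14-day ones, so both pairs of groups overlapped. The log2 fold change was -0.25 ± 0.161 (SE) at 1 day (limma adjusted p = 0.303) and -0.48 for 1 against 14 days (limma adjusted p = 0.0592).

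At 3 days Per1 was 2060.0 in replicate 1 and between 963 and 1119 in the others, and Per2 in the same library was 717.5 against 394 to 472. Per2 had log2 fold changes of 0.15, 0.12 and 0.02 at 1, 3 and 14 days, each smaller than its SE of 0.186. Replicate 1 thus stood above the rest of its group in both genes.

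Per3 and Ciart spread the most of this arm under the spleen label. Per3 was 187, 345, 205, 416 and 378 in untreated and 393, 725, 319.7, 457 and 253 at 1 day, and 2 of 5 libraries at 1 day exceeded every untreated one. Ciart was 62.3, 64.0, 46.0, 33.5 and 59.9 in untreated and 38.5, 134, 58.6, 73.6 and 92.0 at 1 day, with 3 of 5 above all untreated libraries. Log2 fold changes at 1 day were 0.47 ± 0.274 (SE) for Per3 (limma adjusted p = 0.258) and 0.49 ± 0.328 for Ciart (limma adjusted p = 0.328). Without the 1-day replicate 2 they were 0.25 and 0.27 (limma adjusted p = 0.554 and 0.624), and without untreated replicate 1 that of Per3 was 0.31 (limma adjusted p = 0.502).

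Of the nuclear receptors, Nr1d1, which like Nr1d2 represses Arntl, did not pass. In the libraries labelled spleen it was 2128, 2648, 2223, 2796 and 3121 in untreated and 1548, 3135, 2176, 2000.0 and 1953 at 1 day. At 1 day 3 of 5 libraries lay below all untreated ones and replicate 2 lay above all of them. The log2 fold change was -0.28 ± 0.195 (SE) at 1 day (limma adjusted p = 0.342) and -0.23 ± 0.195 at 3 days (limma adjusted p = 0.533). Exons of Nr1d1 overlap those of Thra on the other strand over 263 bases, 8.55% of its exon length in GENCODE vM21, and no source used here says whether counting used strand, so reads there cannot be assigned to either gene.

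Dbp, the output factor, was 1725, 2295, 1818, 2462 and 2083 in untreated libraries labelled spleen and 2066, 4676, 2496, 2743 and 2825 at 1 day. At 1 day 4 of 5 libraries lay above all untreated ones, and replicate 2 held the highest value of all 20. The log2 fold change was 0.47 ± 0.171 (SE), with a limma adjusted p of 0.0667. DESeq2 gave an adjusted p of 0.026, and without the 1-day replicate 2 and the 3-day replicate 1 the log2 fold change was 0.29 with a limma adjusted p of 0.143. Exons of Dbp overlap those of Sphk2 on the other strand over 539 bases, 18.01% of its exon length.

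**Figure D3:**
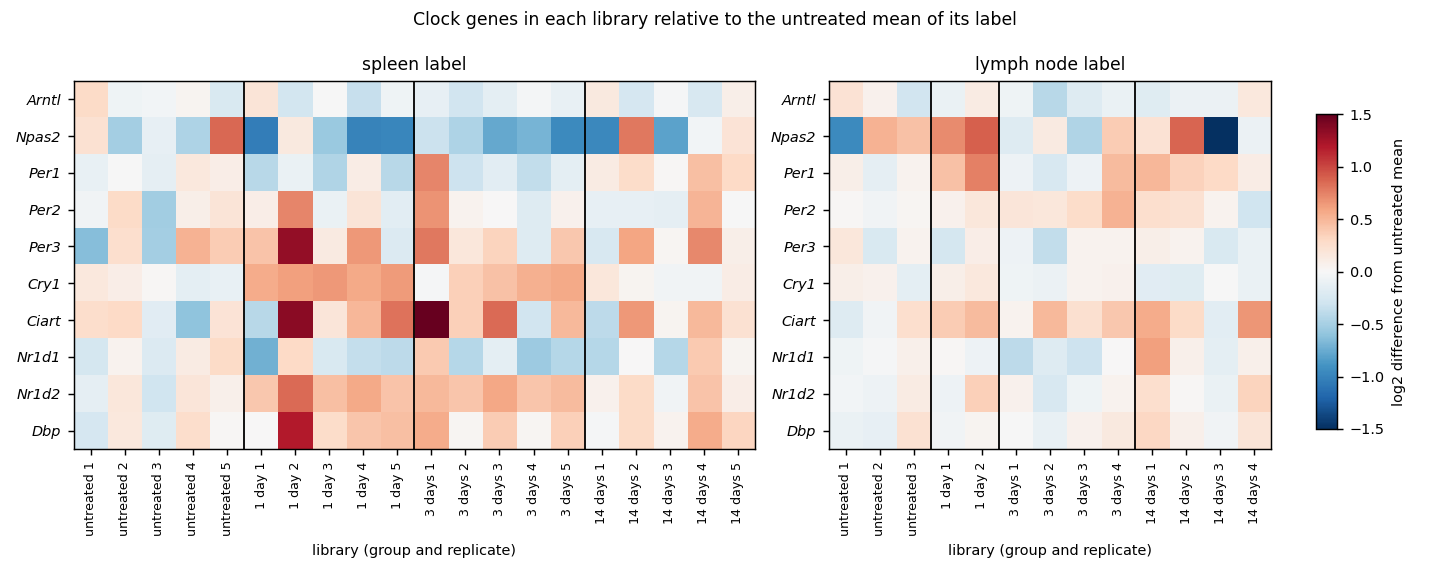
Log2 difference of each clock gene in each library from the mean of the untreated libraries of its label, on a colour scale from -1.5 to 1.5; columns are libraries by group and replicate, and rows are genes. Under the spleen label the 1-day replicate 2 is high in Per2, Per3, Ciart, Nr1d2 and Dbp and the 3-day replicate 1 in Per1, Per2, Per3 and Ciart, while the row of Cry1 is even across the 1-day group.

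Single libraries shaped much of this spread. The 1-day replicate 2 held the highest value of all 20 libraries labelled spleen for Dbp (4676), Per3 (725), Per2 (751) and Nr1d2 (1621). The 3-day replicate 1 held the highest for Per1 (2060.0), Ciart (156) and Nr1d1 (3368). With both left out, the same 2 genes passed at 1 day and at 3 days. Cry1 then had log2 fold changes of 0.60 and 0.47 (limma adjusted p = 2.57e-05 and 0.000205) and Nr1d2 0.46 and 0.47 (limma adjusted p = 0.00411 and 0.00318).

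Adipocyte transcripts moved with several clock genes under the spleen label. The summed normalised count of 12 adipocyte markers, among them Adipoq and Plin1, was 35460.0 to 194400.0 in the untreated group. After 1 day of NAM it was 115500.0 to 494800.0, after 3 days 56630.0 to 238400.0 and after 14 days 50630.0 to 249500.0, with the highest value in the 1-day replicate 2. All 12 were tested, and 1 was higher at 1 day, where 8.56% of all genes were, so 1 of 12 was close to the general share. Under the lymph node label the sum ran from 1248 to 2337, and 5 of the 12 passed the filter. In bulk tissue, more cells of a type and more RNA per cell cannot be told apart.

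Across the 20 libraries labelled spleen, the deviation of each clock gene from its group mean was set against that of the mean log2 level of the adipocyte list, 10 relations chosen after the data were seen. Per3 gave r = 0.88 and rho = 0.85 (permutation p = 1e-05, the smallest that 100000 permutations can give, adjusted p = 0.0001, and 8e-05, adjusted p = 0.0004). Dbp gave r = 0.78 and rho = 0.85 (permutation p = 9e-05, adjusted 0.00045, and 4e-05, adjusted 0.0004), and Nr1d2 r = 0.73 and rho = 0.78 (permutation p = 0.00143, adjusted 0.00358, and 0.00039, adjusted 0.0013). With the 2 libraries of most extreme adipocyte level left out, r was 0.86, 0.78 and 0.74. Levels of these 3 genes therefore followed the adipocyte level within the groups. The first principal component of all tested genes carried 30.07% of the variance. It was lowest in untreated replicate 1 (-62.48) and highest in 1-day replicate 2 (74.25). These libraries also had the lowest and highest adipocyte level, 9.136 and 13.03. The relations are not shown to be particular to clock genes, since the share of all genes that followed the adipocyte level was not computed.

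Nr1d1 (r = 0.71, rho = 0.74), Per2 (r = 0.66, rho = 0.72) and Per1 (r = 0.58, rho = 0.71) followed it too, with permutation p of 0.0014, 0.00397 and 0.00695 for r (adjusted 0.00358, 0.00794 and 0.0116) and of 0.00156, 0.00088 and 0.00063 for rho (adjusted 0.0026, 0.00176 and 0.00158). Arntl ran the other way (r = -0.62, permutation p = 0.0103, adjusted 0.0147; rho = -0.52, permutation p = 0.0355, adjusted 0.0507). Without the same 2 libraries, r was 0.68 for Nr1d1, 0.76 for Per2, 0.62 for Per1 and -0.45 for Arntl. Ciart had r = 0.49 and rho = 0.42 (permutation p = 0.038, adjusted 0.0475, and 0.0929, adjusted 0.116). Cry1 did not pass, with r = -0.36 and rho = -0.26 (permutation p = 0.144, adjusted 0.16, and 0.302, adjusted 0.335), and neither did Npas2, with r = 0.36 and rho = 0.22 (permutation p = 0.168, adjusted 0.168, and 0.396, adjusted 0.396). Within the 9 and 11 libraries on either side of the second principal component, r was 0.91 and 0.86 for Per3, 0.73 and 0.90 for Dbp and 0.76 and 0.71 for Nr1d2. On those sides it was 0.60 and 0.79 for Nr1d1, 0.85 and 0.55 for Per2, 0.66 and 0.55 for Per1 and -0.53 and -0.69 for Arntl.

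With the adipocyte level as a covariate, 4 of 10 clock genes passed at 1 day in place of 2, while the share of all genes called was 20.4% in place of 16.6%. Cry1 was higher by 0.66 (limma adjusted p = 0.000368) and Nr1d2 by 0.41 (limma adjusted p = 0.00237), while Nr1d1 and Per1 were lower, by log2 fold changes of -0.53 and -0.42 (limma adjusted p = 0.0151 and 0.0407). Per3 then had a log2 fold change of 0.03 in place of 0.47 and Dbp one of 0.23 in place of 0.47, and neither passed. At 3 days the covariate left Cry1 at 0.40 and Nr1d2 at 0.42 (limma adjusted p = 0.00875 and 0.00399), the 2 genes that passed, with 11.5% of all genes called.

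**Figure D4:**
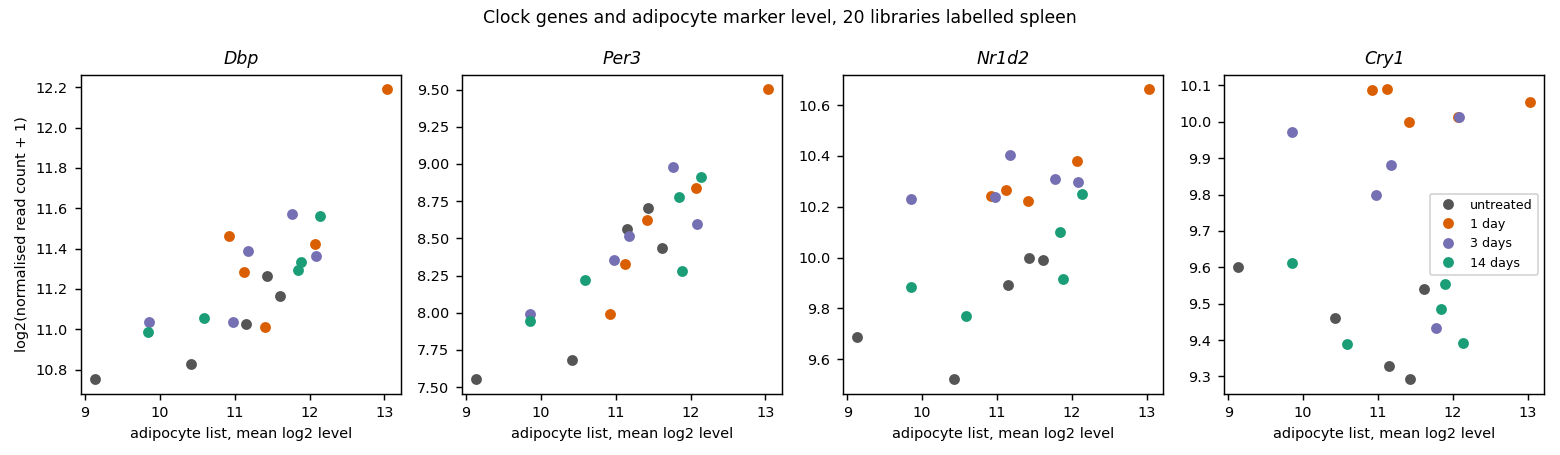
Log2(normalised read count + 1) of Dbp, Per3, Nr1d2 and Cry1 (y axes, which do not start at 0) against the mean log2 level of 12 adipocyte markers (x axis) in the 20 libraries labelled spleen, coloured by group. Dbp and Per3 rise with the adipocyte level over all groups, Nr1d2 does so with the 1-day and 3-day libraries mostly above the rest, and Cry1 is high in the 1-day libraries over the whole range of adipocyte levels they span.

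Pairs of clock genes were compared in the same way, as deviations from group means, in 6 relations. For the spleen label, Dbp and Per3 rose and fell together, with r = 0.78 (permutation p = 0.0006, adjusted 0.0036) and rho = 0.75 (permutation p = 0.00064, adjusted 0.00384). With the 2 libraries most extreme in Dbp left out, r was 0.81, and within the 9 and 11 libraries on either side of the second principal component it was 0.71 and 0.90. Both genes followed the adipocyte level as given above, and its part in this relation was not tested. Arntl ran against Dbp (r = -0.52, permutation p = 0.0432, adjusted 0.0863; rho = -0.51, permutation p = 0.0369, adjusted 0.0739) and against Nr1d1 (r = -0.54, permutation p = 0.0207, adjusted 0.0621; rho = -0.54, permutation p = 0.0267, adjusted 0.0739), neither of which passed the adjustment.

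For the lymph node label, over 13 libraries, Dbp and Per3 gave r = 0.60 (permutation p = 0.0578, adjusted 0.0867) and rho = 0.51 (permutation p = 0.104, adjusted 0.156). Without the 2 farthest libraries r was 0.64. The relations of Arntl with Dbp (r = -0.19, rho = -0.06) and with Nr1d1 (r = -0.33, rho = -0.44) had permutation p of 0.659 and 0.269 for r, and 0.877 and 0.137 for rho.

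Several clock genes varied less in the libraries labelled lymph node. The ratio of the highest to the lowest library was 1.35 for Dbp and 1.46 for Per3, as against 2.71 and 3.88 under the spleen label, and 1.27 for Cry1. The SD within groups on the log2 scale was 0.145 for Dbp and 0.194 for Per3, as against 0.295 and 0.475 under the spleen label. It was larger under the lymph node label for Npas2 (0.758 against 0.541), Nr1d2 (0.183 against 0.172) and Arntl (0.181 against 0.177). Over all tested genes its median was 0.171 under the lymph node label and 0.229 under the spleen label.

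**Figure D5:**
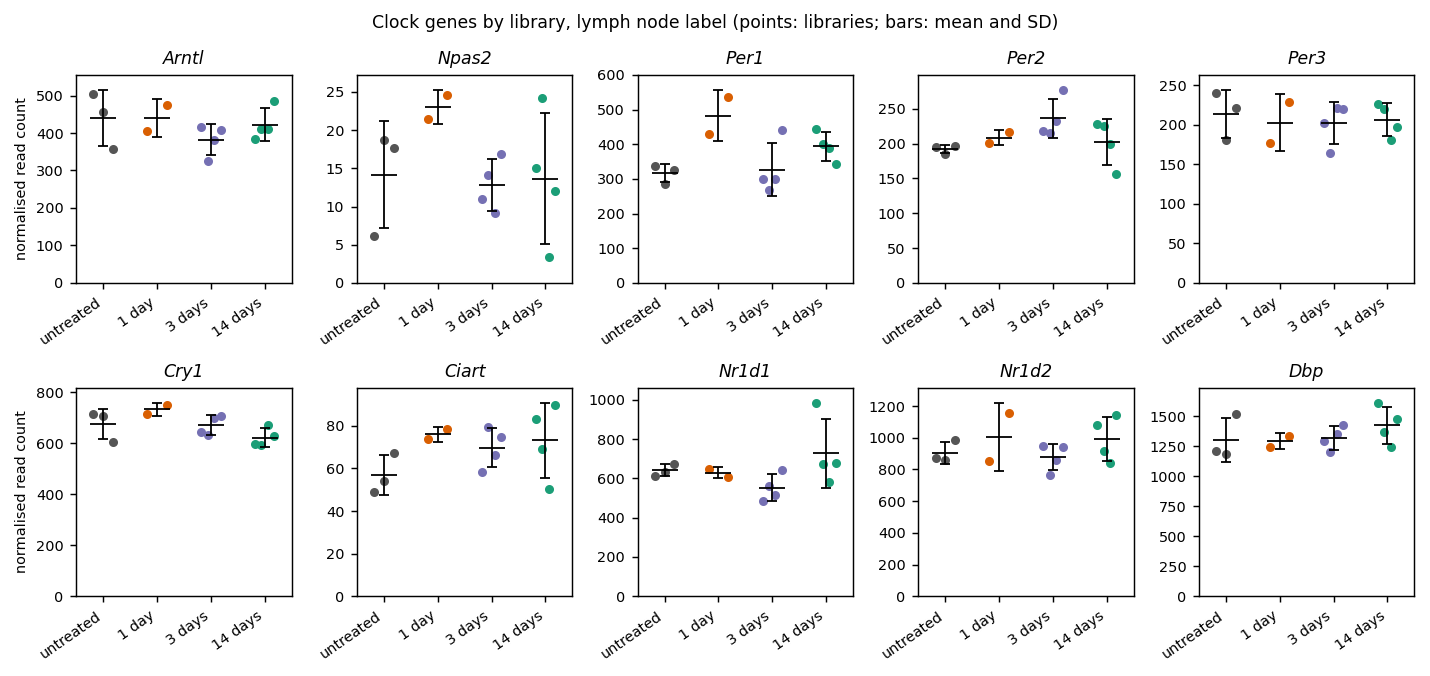
Normalised read counts of the 10 clock genes in the 13 libraries labelled lymph node, by group on the x axis and with a separate y axis from 0 for each gene; points are libraries and bars the mean and SD of 3, 2, 4 and 4. Per1 at 1 day, 430.0 and 535, lies above the untreated libraries, and Cry1 stays between 592 and 749.8 in all groups.

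Under this label 0 of 10 clock genes passed at 1, 3 or 14 days, where the test called 1.21%, 1.24% and 0.791% of 18215 genes. At each duration 1 of 10 had an unadjusted p under 0.05, edgeR called 0, and DESeq2 called 1 at 1 day (Per1) and 0 at the others. Between durations limma called 0 of 10 at 1 against 14 days (0.401% of all genes), at 3 against 14 days (0.0110%) and at 1 against 3 days (0.357%), with 1, 2 and 1 at an unadjusted p under 0.05 and 0 by edgeR and by DESeq2. In the test of any difference among the 4 groups 0 of 10 passed (1.76% of all genes), with 1 at an unadjusted p under 0.05, 0 by edgeR and 1 by DESeq2.

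Per1 had the smallest p at 1 day under the lymph node label. It was 337, 287 and 327 in untreated, 430.0 and 535 at 1 day, 300.5, 268, 299 and 441 at 3 days and 445, 401, 389 and 342 at 14 days. Both 1-day libraries and all 4 14-day libraries lay above the untreated ones, and the 3-day libraries overlapped them. The log2 fold change at 1 day was 0.60 ± 0.176 (SE), with an adjusted p of 0.114 by limma and of 0.0442 by DESeq2, and at 14 days it was 0.31 ± 0.148 (limma adjusted p = 0.422). Without the 1-day replicate 1 the log2 fold change was 0.76 (limma adjusted p = 0.155), and without replicate 2 it was 0.44 (limma adjusted p = 0.437), fits in which the lone library was assumed to vary like the other groups.

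The 1-day replicate 1 under this label held pancreatic transcripts. The summed normalised count of 15 pancreatic acinar markers was 144200.0 there, 1167 in replicate 2, 1265 to 1332 in untreated, 868 to 1172 at 3 days and 683 to 1054 at 14 days, while Per1 was higher in replicate 2. Of these markers 14 were tested and 0 were called at 1 day, where 1.21% of all genes were. Of 10 erythroid genes, 0 were called at 1 day. At 3 days 7 were lower, where 0.906% of all genes were, and at 14 days 2, where 0.681% were. The summed count of the erythroid genes was 1454000.0 to 3060000.0 in untreated, 994800.0 to 2141000.0 after 1 day, 321300.0 to 1389000.0 after 3 days and 794400.0 to 1188000.0 after 14 days. Their part in the values of the clock genes was not tested.

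Cry1 under the lymph node label was 713, 706 and 607 in untreated and 715 and 749.8 at 1 day, which left the groups apart by a narrow margin. Its log2 fold change was 0.12 ± 0.1 (SE), with a limma adjusted p of 0.613. Nr1d2 was 876, 858 and 985 in untreated and 856 and 1156 at 1 day, with a log2 fold change of 0.14 ± 0.143 (limma adjusted p = 0.706). Groups did not overlap with untreated for 5 of 10 genes at 1 day (Npas2, Per1, Per2, Cry1 and Ciart, all higher), 1 at 3 days (Per2) and 1 at 14 days (Per1). Among all genes this held for 32.6%, 15.3% and 11.5%.

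Whether a gene's change with NAM differed between the labels was tested for 17147 genes. At 1 day 0 of 10 clock genes passed (1.69% of all genes), with 4 at an unadjusted p under 0.05, namely Cry1, Per1, Npas2 and Nr1d2. The change of Cry1 was larger under the spleen label by 0.48 ± 0.145 (SE) on the log2 scale (limma adjusted p = 0.0754), and the same difference for Per1 was -0.85 ± 0.27 (limma adjusted p = 0.0911). At 3 days 0 of 10 passed (0.735%), with 2 at an unadjusted p under 0.05, Nr1d2 at 0.52 ± 0.168 and Cry1 at 0.38 ± 0.13 (limma adjusted p = 0.137 and 0.159). At 14 days 0 of 10 passed (0.140%), with 0 at an unadjusted p under 0.05. In each of these edgeR and DESeq2 called 0. With library weights 2 of 10 passed at 1 day, Cry1 (0.52, limma adjusted p = 0.014) and Per1 (-0.90, limma adjusted p = 0.015), where 5.14% of all genes did. At 3 days the weights gave Cry1 and Nr1d2 (limma adjusted p = 0.00174 and 0.0215), where 11.3% of all genes passed, and without the spleen-label 3-day replicate 1 Cry1 passed alone (0.48, limma adjusted p = 0.00665). With the adipocyte covariate Cry1 and Per1 passed at 1 day (limma adjusted p = 0.0417 and 0.00998), where 3.00% of all genes did. Whether the labels differed in the response of Cry1, Per1 or Nr1d2 thus depended on these settings and on that library.

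The levels of untreated libraries differed in pattern between the labels, within the limit of the separate scaling. Per1 was 1247 ± 113 (SD, n = 5) under the spleen label and 317 ± 26.6 (n = 3) under the lymph node label, Nr1d1 2583 ± 411 and 641 ± 31.4, and Per2 458 ± 91.2 and 192 ± 6.16. In contrast, Cry1 was 698 ± 64.0 and 675 ± 59.6, Nr1d2 909 ± 126 and 906 ± 68.5, and Arntl 384 ± 51.5 and 439.9 ± 75.0. These are values side by side, with no test across the labels.

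Beyond the 10, the other clock genes numbered 24 in the table, 23 of which were tested. Under the spleen label 2 were higher at 1 day, where 8.56% of all genes were, 1 was lower at 3 days, where 2.74% of all genes were, and 0 passed at 14 days, while 0 passed under the lymph node label. Their median log2 fold change at 1 day was 0.03 under the spleen label. Wee1, a cell cycle kinase under clock control, rose from 210.3 ± 18.4 to 294 ± 26.9 (SD, n = 5), a log2 fold change of 0.48 (limma adjusted p = 0.00571), and passed in all 23 alternatives.

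Usp2, a deubiquitinase, ran from 50.2 to 101 in untreated and from 93.1 to 373 at 1 day, with a log2 fold change of 1.06 (limma adjusted p = 0.0451), a call that passed in 12 of 23 alternatives. The call was lost without any of untreated replicates 1, 3 and 5 and 1-day replicates 2 and 4 (limma adjusted p between 0.0735 and 0.123), and the log2 fold change was 0.74 without the 1-day replicate 2. With the adipocyte covariate it was 0.52 (limma adjusted p = 0.0804). Nono, an RNA-binding partner of period proteins, was lower at 3 days by a log2 fold change of -0.29 (limma adjusted p = 0.0492), a call that passed in 9 of 23 and was lost without any of 9 libraries, all those of both groups but the 3-day replicate 1 (limma adjusted p between 0.0591 and 0.138). Cry2, the other cryptochrome, had a log2 fold change of 0.08 at 1 day (limma adjusted p = 0.699) and did not pass.

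Among 13 genes of the NAD link of the clock, 1 passed at 1 day under the spleen label and 0 in the other comparisons with untreated under either label. With 16.6% of all genes called at 1 day under the spleen label, 1 of 13 was no more than the general share. That gene was Nnmt, which methylates nicotinamide, with 278 ± 110 (SD, n = 5) in untreated and 774 ± 430.2 at 1 day, a log2 fold change of 1.44 (limma adjusted p = 0.0259). It passed in 17 of 23 alternatives and not without untreated replicate 1 or 3 or 1-day replicate 2 or 4 (limma adjusted p between 0.0509 and 0.0758). With the adipocyte level as a covariate its log2 fold change was 0.78 (limma adjusted p = 0.0241). Nampt, the enzyme that recycles nicotinamide into NAD, had log2 fold changes of 0.20, -0.02 and 0.11 after 1, 3 and 14 days for the spleen label and of 0.25, 0.06 and -0.09 for the lymph node label, and did not pass. Sirt1, a NAD-dependent deacetylase, had 0.08, 0.11 and 0.13 under the spleen label.

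Per1 also answers to glucocorticoids and to CREB, so lists of 12 genes were counted for each, and the genes named from them here were chosen after their values were seen. Of the glucocorticoid-responsive genes, which include Per1, 5 were higher at 1 day under the lymph node label, Errfi1 (log2 fold change 2.35), Ddit4 (1.93), Tsc22d3 (1.38), Dusp1 (1.13) and Klf9 (0.91), with limma adjusted p between 1.53e-05 and 0.0309, where 0.884% of all genes were called higher. The first 3 passed in all 17 alternatives, Klf9 in 13 and Dusp1 in 11. Klf9 was lost without untreated replicate 1 or 2 or 1-day replicate 2 (limma adjusted p between 0.0792 and 0.205), and Dusp1 without those or 1-day replicate 1 (0.12 to 0.18). The rest of the list did not pass at 1 day, among them Fkbp5 (0.87, limma adjusted p = 0.115), Mt1 (0.11, limma adjusted p = 0.764) and Mt2 (-0.91, limma adjusted p = 0.162). The median log2 fold change of the list was 0.73, while that of all genes was within 0.01 of 0. At 14 days 3 were higher (Ddit4, Errfi1 and Tsc22d3) and 2 lower (Mt1 and Mt2), and at 3 days 2 were lower (Mt1 and Mt2), where 0.110% of all genes were higher and 0.681% lower at 14 days and 0.906% lower at 3 days. Of the 14-day calls over 19 alternatives, Errfi1 (limma adjusted p = 0.0396) passed in 9, Ddit4 in 14, Tsc22d3 in 16, Mt1 in 17 and Mt2 in 19. Without untreated replicate 2 the limma adjusted p was 0.217 for Errfi1, 0.171 for Ddit4, 0.119 for Tsc22d3 and 0.139 for Mt1, and without untreated replicate 1 it was 0.136, 0.0991 and 0.0762 for the first 3. Ddit4 was also lost without the 14-day replicate 1 (0.0571), and Errfi1 without any of untreated replicate 3 and 14-day replicates 1, 2 and 4 (limma adjusted p between 0.0524 and 0.0809). The 3-day call of Mt1 was lost without untreated replicate 2 (limma adjusted p = 0.0815). For the spleen label 1 was lower at 1 day (Sgk1, -0.35, limma adjusted p = 0.0129), where 8.05% of all genes were, so 1 of 12 was close to the general share. At the other durations 0 passed there, with 5.55% of all genes called at 3 days and 0% at 14 days. Under the lymph node label erythroid genes were lower in the same comparisons, 7 of 10 at 3 days and 2 at 14 days, and 1 of the 2 libraries at 1 day held the pancreatic transcripts described above. Their part in these calls was not tested.

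Of the CREB and immediate early genes, 5 of 12 were lower at 1 day under the spleen label, where 8.05% of all genes were lower and Per1 had -0.25, and 0 passed at 3 and 14 days. These were Fosb (-0.75), Egr1 (-0.68), Sik1 (-0.58), Egr2 (-0.41) and Nr4a1 (-0.40), with limma adjusted p between 0.00188 and 0.0144. Under the lymph node label 2 were higher at 1 day, Dusp1 (1.13) and Sik1 (0.74), where 0.884% of all genes were. At 3 and 14 days 0 passed there, where 1.24% and 0.791% of all genes did. Dusp1 is also on the glucocorticoid list, so its call is counted in both. Sik1 was lost without untreated replicate 1 or 2 or 1-day replicate 2 (limma adjusted p between 0.0879 and 0.206).

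Genes most like Dbp and Arntl were sought by Pearson's r of log2(normalised count + 1) over all libraries of a label, given as a description since these libraries share groups and adipocyte level. Across the 20 libraries labelled spleen, Dbp was most like Apoc1 (r = 0.93), Hagh (0.92), Hspb1 (0.92), the row shared by Rag1 and B230118H07Rik (0.92) and Dhrs7 (0.91), and most unlike Tlr1 (-0.87), the row of Pik3cd and Mir7023 (-0.86) and Tmc8 (-0.86). Of the other clock genes, Per3 (0.81) and Nr1d2 (0.78) were nearest to Dbp. Arntl was most like Pold3 (0.84), Ehd3 (0.82), Ski (0.81), Cd40lg (0.80) and Sufu (0.80) and most unlike Scnn1b (-0.81), Nrep (-0.80) and Ccdc106 (-0.80). Among clock genes it was most opposed to Per3, at -0.62.

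Across the 13 libraries labelled lymph node, Dbp was most like Cd3eap (0.88), Prickle2 (0.88), Fzd3 (0.86), Fat4 (0.85) and Fbxo21 (0.84), and most unlike Mbnl3 (-0.87), Lilr4b (-0.84) and Cisd2 (-0.83). Arntl was most like Ccnk (0.92), Ctr9 (0.88), Api5 (0.85), Eprs (0.84) and Whsc1l1 (0.83), and most unlike Ccdc126 (-0.88), Ephb6 (-0.86) and Mtmr11 (-0.85). Nr1d2 (0.72) and Nr1d1 (0.64) were the clock genes nearest to Dbp there.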

How the data were processed

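Messenger RNA of tissues from mice, labelled spleen or lymph node, was sequenced in paired-end mode, and the sample titles gave each library's group and replicate number. The authors deposited 1 table of normalised read counts per gene on mm10, a linear signal made by dividing the reads of each library by a size factor. The submitters' processing notes name STAR 2.4.0, DESeq2, FastQC, Picard and SAMtools. Strand use in counting is not given in the sources used here, so reads of overlapping genes can be shared. The deposited signal could be divided back into whole reads in each library (100.0% of values within a tolerance of 0.01 read), and these reads served the count tests and the depths. Of the 56 pairs of replicate libraries, 0 were identical.

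Values were tested as log2(normalised count + 1), which understates the change of low genes, with limma 3.58.1 in R 4.3.3, a trend on mean level and the 4 groups of each label fitted together. Genes with a mean normalised count under 10 were left out. Tests were two-sided and adjusted by the Benjamini-Hochberg method over all genes tested, with a threshold of 0.05. The difference between labels was tested in 1 fit over both. Correlations of deviations from group means used two-sided permutation (scipy 1.17.1). The test was also run on simulated reads with known changes, and the outcome of that run is not given here. Alternatives were other pseudocounts, no filter, quantile and TMM scaling, only the 2 groups compared, library weights, a replicate block, an adipocyte covariate, thinned reads, edgeR 4.0.16, DESeq2 1.42.0, an unadjusted p with a 1.5-fold change, and each library left out. The alternative without 2 libraries and the relations with the adipocyte level were added after seeing the data.

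The clock genes and all gene lists were chosen with earlier results of these data known. The rule named all 10 clock genes, the genes of the other clock and NAD lists that passed against untreated, Clock, Cry2, Nampt and Sirt1, and the rows most like Dbp and Arntl. Other marker lists were counted as well: of skeletal muscle, 1 of 5 tested genes was lower at 1 day and 0 at the other durations under the spleen label, and 0 of 5 passed under the lymph node label. A result for 1 of the other clock genes is not reported here.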

Additional observations from a re-analysis of the deposited data

Results flagged for a closer look

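In groups of 4 or 5 libraries, 60 sets of a clock gene in a group were examined for a library far from the rest, and 3 had one, where chance gives about 1 in 20. All 3 lay under the spleen label. Per2 in the 3-day replicate 1 was 717.5 normalised counts, while the other 4 libraries lay between 394 and 472. Per1 in the same library was 2060.0, with the others between 963 and 1119. Per2 in the 14-day replicate 4 was 638.7, with the others between 410.5 and 448.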

How the results depend on the processing

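Counts of clock genes that passed stayed within 1.5 times of the reported count in 368 of 399 repeats over 17 comparisons, and no named gene that passed changed direction. In most of the 17 comparisons the reported count was 0, and a repeat that also gave 0 was scored as the same. The 368 of 399 therefore says little on the counts above 0. Under the spleen label at 1 day, 4 passed with the adipocyte covariate, and at 3 days 1 passed with only the 2 groups fitted. With an unadjusted p and a 1.5-fold change, the 2 at 1 day under that label were Cry1 and Npas2 (log2 fold change -0.69), and not Nr1d2. Under that rule 0 passed at 3 days (3.40% of all genes) and 0 at 1 against 14 days (5.17%), and 1, Per1, at 1 day under the lymph node label (4.91%). At 3 against 14 days under the spleen label, 3 passed with library weights (17.2% of all genes), 2 with the adipocyte covariate (5.11%), 2 without the 1-day replicate 2 and 3-day replicate 1, and 1 each with thinned reads (1.39%), edgeR (1.67%) and DESeq2 (4.66%). Under the lymph node label, 1 passed at 1 day with the adipocyte covariate (1.34%), 1 with DESeq2 (2.99%), and 1 with DESeq2 in the test of any difference (5.38%). For the difference between the labels, 2 passed at 1 day with library weights, 2 at 1 day with the adipocyte covariate and 2 at 3 days with library weights. The cause was not tested.

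With libraries left out in turn, the counts ran from 0 to 2 at 3 days, with 0 without the 3-day replicate 3, from 1 to 2 at 1 against 14 days, with 1 without the 14-day replicate 1, and from 0 to 2 at 3 against 14 days under the spleen label. Under the lymph node label they ran from 0 to 1 for any difference and for 1 against 3 days, with 1 without the 3-day replicate 4, and for the difference between the labels at 3 days from 0 to 1, with 1 without the spleen-label 3-day replicate 1.

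For libraries with the same replicate number, correlations of their deviations ran from -0.496 to 0.468 over 30 pairs under the spleen label. Under the lymph node label they ran from -0.107 to 0.0789 over 16. With different numbers they ran from -0.559 to 0.548 over 120 pairs and from -0.1 to 0.113 over 46. These ranges cannot show whether libraries of the same number shared a batch, and pairs across the labels are not among them. With the replicate block, 2 clock genes passed at 1 day and 2 at 3 days for the spleen label, and none (0) for the lymph node label. The reads of Npas2, as few as 3 in a library, limit what could be detected for it.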
